A study of Homo sapiens with 6 samples.

Results

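The cluster of miR-424, miR-503, miR-542 and miR-450 is a group of microRNA (miRNA) genes that lie close together on the X chromosome and are read from the same strand. Its 7 mature products other than star strands were taken by the probe names printed on the arrays, namely hsa-miR-424, hsa-miR-503, hsa-miR-542-3p, hsa-miR-542-5p, hsa-miR-450a, hsa-miR-450b-5p and hsa-miR-450b-3p, written from here on without the species prefix. They make up 7 of 1719 human miRNA probes, with 1 spot each per array. The star strand of miR-424 has a probe as well and is given beside them.

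The study used the HK-2 cell line, derived from the human proximal tubule and made immortal by papillomavirus genes whose products act on p53 and RB. It is a single line, so the samples stand for that line and not for kidney tissue. The control group held 3 samples kept without aristolochic acid, and the treated group held 3 samples given aristolochic acid at 5 µg/ml. Both groups spent 48 h in medium with 0.2% fetal calf serum. Aristolochic acid, found in some medicinal plants, is toxic to the kidney and damages DNA, and the series asked which miRNAs differ after it. The labels do not say whether the 3 samples of a group are separate cultures. The p-values therefore rest on the spread among these samples alone, and that spread may be technical.

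A miRNA is cut from a hairpin in a longer transcript, and either arm of the hairpin, named 5p or 3p, can be loaded into an Argonaute protein to repress messenger RNAs. Pairing rests mainly on the seed, bases 2 to 8 of the mature strand. Hairpins of 1 transcript start from equal amounts, and processing, arm choice and stability then set how much of each mature strand is kept. MiR-424 and miR-503 are known as brakes on the cell cycle that target G1 cyclins and their kinases, and miR-424 is the human counterpart of mouse miR-322.

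Mature sequences for 6 of the 7 miRNAs were matched by name in the RefSeq table of assembly GRCh38.p14. They are shown because the seeds set the targets apart. Each is written 5′ to 3′ with its seed in capitals, in gene order along the minus strand. The array name without an arm stands for the 5p strand in current names.
miR-424: cAGCAGCAauucauguuuugaa
miR-503: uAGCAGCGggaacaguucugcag
miR-542-5p: uCGGGGAUcaucaugucacgaga
miR-450a: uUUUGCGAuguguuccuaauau
miR-450b-5p: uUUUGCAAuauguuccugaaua
miR-450b-3p: uUGGGAUCauuuugcauccaua
The star strand miR-424* is the 3p arm of the same hairpin as miR-424.
miR-424*: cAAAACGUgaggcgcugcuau

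All of them lie on the minus strand. In GRCh38.p14 the mature miR-424 is at chrX:134546680-134546701, miR-503 at chrX:134546371-134546393 and miR-542-5p at chrX:134541400-134541422. MiR-450a is encoded in 2 genes with the same mature sequence, MIR450A2 at chrX:134540564-134540585 and MIR450A1 at chrX:134540393-134540414, and its probe cannot tell them apart. MiR-450b-5p is at chrX:134540231-134540252 and miR-450b-3p at chrX:134540194-134540215. Read along that strand, the order is MIR424, MIR503, MIR542, MIR450A2, MIR450A1 and MIR450B. The MIR424 and MIR503 hairpins are 215 bases apart, and 4890 bases separate MIR503 from MIR542. RefSeq places MIR503 inside the span of the long noncoding RNA MIR503HG, whose start overlaps MIR424, and the MIR542 and MIR450 genes lie beyond its annotated end.

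The 6 matched miRNAs carry 6 different seeds. The seed of miR-424 is AGCAGCA, which 7 of the 2370 human mature miRNAs in the table hold, among them miR-15a, miR-15b, miR-16, miR-195 and miR-497. The seed of miR-503 is AGCAGCG, held by miR-503 alone, and differs from that of miR-424 by A8G (the base of miR-424, the position from the 5′ end, the base of miR-503). MiR-450a and miR-450b-5p match at 16 of 22 positions. They differ by G7A inside the seed and by G10A, A18G, U20A, A21U and U22A outside it, with the base of miR-450a first. The seeds of miR-450a, miR-450b-5p and miR-542-5p were each held by 1 mature miRNA in the table, and miR-450b-3p shared its seed with miR-769-3p. The G and C content of the mature strands ran from 27.3% in miR-450b-5p to 56.5% in miR-503.

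The deposited tables give each spot's raw intensity and the intensity after the authors took off 1 background value per array. A spot is called detected if the authors left a background-subtracted value for it, which they did above about 2 SDs of the blank spots. The arrays of the groups differed in ways that touch dim probes. The background ranged from 50.6 to 51.8 in the control group and from 53.3 to 61.8 in the treated group, and the SD of the blank spots, without their highest and lowest 5%, was 1.17 to 1.71 and 1.93 to 2.46 (exact permutation p = 0.1 for each, 2-sided, the smallest that 3 against 3 can give). The total signal of detected human probes was 80088 to 101889 and 108515 to 120739, so treated arrays were brighter. The spike-in control spots were brighter on them as well, with a mean log2 raw intensity of 11.87 to 12.11 and 12.15 to 12.39 (exact permutation p = 0.1). How much of the brightness of the human probes goes with that was not tested. Treatment and any batch that follows it cannot be told apart. Between 644 and 936 human probes were detected per array. Control replicate 3 stood apart in miR-21, with a scaled intensity of 2297 against 11876 to 15181 on the other 5 arrays, and the scaled differences of the 4 miRNAs detected on all 6 arrays are also given without it. Of the kidney tubule markers 4 of 5 and of the epithelial markers 5 of 6 were detected on all 6 arrays. Markers of other cell types were present in part: 1 of 3 for blood (miR-142-3p), 1 of 1 for endothelium (miR-126), 2 of 3 for muscle (miR-1 and miR-133a), 1 of 2 for neural cells (miR-9) and 0 of 1 for liver were detected on all 6 arrays, while the blood marker miR-451 and the neural marker miR-124 were detected on none. MiR-204, another tubule marker, was detected on 2 control arrays and 0 treated arrays.

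Of the 7 miRNAs, 4 were detected on all 6 arrays (miR-424, miR-503, miR-542-3p and miR-450a). MiR-542-5p was detected on 2 control arrays and 3 treated arrays, miR-450b-5p on 1 and 2, and miR-450b-3p on 2 and 0. The filter, detection on all arrays of at least 1 group, left 5 of the 7 for testing. A probe's brightness depends on its sequence, so levels are compared between arrays and never between probes. The arrays measured RNA of whole cultures, in which fewer cells that make a miRNA and less of it per cell cannot be told apart.

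**Figure D1:**
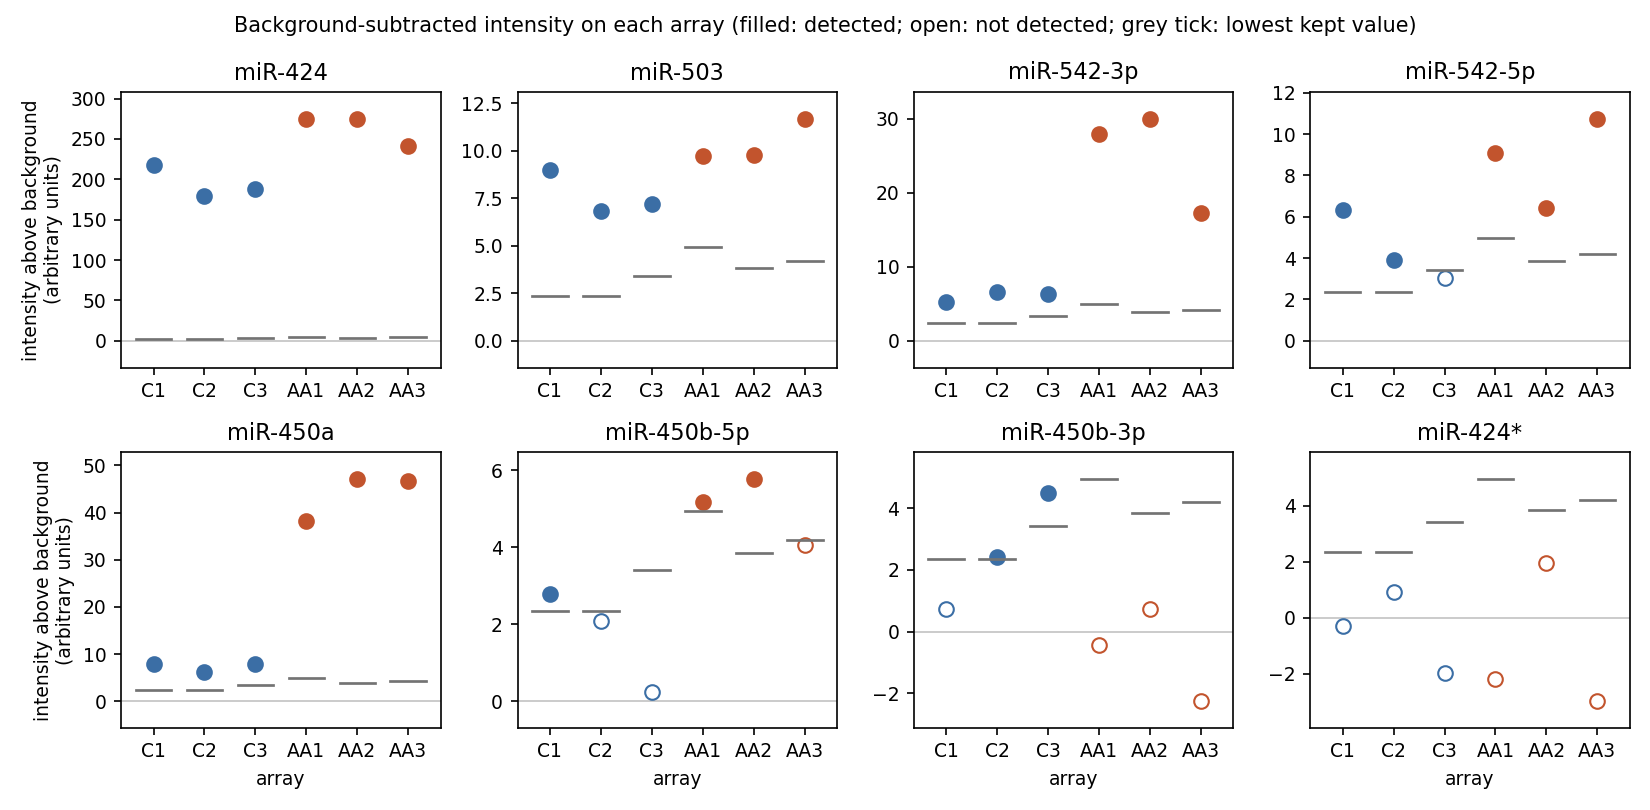
Background-subtracted intensity (arbitrary units, linear axes with their own ranges) of the 7 cluster miRNAs and miR-424* on the control arrays (C1 to C3, blue) and the arrays of cells treated with aristolochic acid (AA1 to AA3, orange). Filled points were detected, open points were not, and the grey tick is the lowest value kept for a human probe on that array. MiR-450a and miR-542-3p stand far above their control values on all 3 treated arrays, and miR-450b-5p, miR-450b-3p and miR-424* lie near or under the grey ticks.

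The products nearest the start of the cluster come first. MiR-424, far above background at 110 to 186 SDs of the blank spots, had background-subtracted intensities of 218, 180 and 188 on the control arrays and 275, 275 and 241 on the treated arrays. All 3 treated arrays lay above all 3 control arrays on this scale, as they did for 53.7% of the human probes detected on all 6 arrays (53.9% in either direction). To set arrays on a common level, each was scaled so that the median of those probes is 25. The scaled intensity of miR-424 was 318 ± 23.4 in control and 298 ± 13.0 in treated samples (SD, n = 3 per group), and the groups overlapped.

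MiR-503 was dim. Its background-subtracted intensities were 9.02, 6.84 and 7.21 on the control arrays and 9.75, 9.80 and 11.7 on the treated arrays, or 3.97 to 7.68 SDs of the blank spots. The groups did not overlap on that scale, but its scaled intensity was 12.5 ± 1.37 and 11.8 ± 1.82 (SD, n = 3 per group) and overlapped.

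The linear model (limma) was fitted across 625 probes on normexp-corrected intensities with an offset of 50 and quantile normalization. It gave a log2 difference of -0.09 for miR-424 (95% interval -0.18 to 0.00019, adjusted p = 0.325) and of -0.0035 for miR-503 (-0.084 to 0.077, adjusted p = 0.965). On the quantile-normalized values the treated arrays of miR-424 all lay below the control arrays, as 19.6% of 624 probes did not overlap in one direction or the other. On the scaled intensities the limma log2 differences were -0.09 (95% interval -0.42 to 0.24, adjusted p = 0.797) and -0.08 (-0.48 to 0.31, adjusted p = 0.830). Neither miRNA passed. Without control replicate 3 the scaled log2 differences were -0.06 and -0.07. The direction of both depended on the scaling. Without normalization between arrays, where 310 of 625 probes rose and the median probe stood at 0.14, miR-424 rose by 0.36 (limma adjusted p = 0.00924) and miR-503 by 0.11 (limma adjusted p = 0.0498). With median scaling miR-424 rose by 0.29 (limma adjusted p = 0.0455).

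MiR-542 lies next in the gene order, and both of its arms have a probe. The 3p arm, known for repressing the apoptosis inhibitor survivin, had background-subtracted intensities of 5.19, 6.64 and 6.34 on the control arrays and 27.9, 30.02 and 17.3 on the treated arrays. The treated arrays all lay above the control arrays, as they did on this scale for 53.7% of the probes detected on all 6 arrays. Treated replicate 3 was the lowest of its group. The control values were 3.71 to 5.69 SDs of the blank spots above background and the treated values 8.23 to 15.6.

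The scaled intensity of miR-542-3p was 9.93 ± 1.72 in control and 28.2 ± 6.56 in treated samples (SD, n = 3 per group), or 2.82-fold as a ratio of geometric means. In the limma fit on scaled intensities it rose by 1.49 on the log2 scale (SE 0.23, 95% interval 0.97 to 2.01, adjusted p = 0.0271), with the 3rd smallest p of all probes in that fit. In the quantile fit the log2 difference was 0.29 (SE 0.054, limma adjusted p = 0.0687) and did not pass. The call on the scaled intensities did not hold in 5 of 6 refits with a single array removed (limma adjusted p 0.0728 to 0.0968). It was lost without any 1 control array and without treated replicate 1 or 2, and it was kept without treated replicate 3 (limma adjusted p = 0.0179). Without control replicate 3 the log2 difference was 1.58 (limma adjusted p = 0.0728).

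MiR-542-5p, the other arm of that hairpin, had background-subtracted intensities of 6.35, 3.89 and 3.05 on the control arrays, the last not detected, and 9.09, 6.42 and 10.7 on the treated arrays. The treated arrays all lay above the control arrays on this scale, as they did for 53.7% of the probes detected on all 6 arrays. The scaled intensity was 7.11 ± 2.31 and 10.01 ± 2.96 (SD, n = 3 per group), and there the groups overlapped. The quantile fit, which uses the undetected spot at its measured value, gave a log2 difference of 0.05 (95% interval -0.05 to 0.15, limma adjusted p = 0.599). Its sign turned when arrays were scaled on the spike-ins (-0.10) or when the authors' normalized values were used (-0.016). The authors' values hold none for this probe on control replicate 3, so that array was left out there. Under these settings the median of all probes was -0.11 and -0.20. A test of the difference between the arms was not made, because 1 array did not detect the 5p arm.

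MiR-450a had the largest difference of the tested cluster miRNAs in both fits. Its raw intensities were 58.7, 58.1 and 58.5 on the control arrays and 99.98, 100.5 and 104.6 on the treated arrays, and its background-subtracted intensities were 7.80, 6.23 and 7.89 against 38.2, 47.1 and 46.7. The groups were far apart on either scale. Control values lay 4.61 to 6.64 SDs of the blank spots above background and treated values 15.6 to 24.5, so the size of the fold rests on dim control spots.

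The scaled intensity of miR-450a was 11.9, 10.1 and 13.8 on the control arrays and 43.4, 50.6 and 55.6 on the treated arrays, or 4.19-fold as a ratio of geometric means. It rose by 2.07 on the log2 scale in the limma fit on scaled intensities (SE 0.18, 95% interval 1.66 to 2.48, adjusted p = 0.00128), with the smallest p of all probes in that fit. In the quantile fit it rose by 0.55 (SE 0.048, limma adjusted p = 0.0036), where the offset of 50 adds to dim spots and shrinks their differences. Without control replicate 3 the scaled log2 difference was 2.18 (limma adjusted p = 0.00475), and over the 6 fits that each left out 1 array it was 1.95 to 2.18 (limma adjusted p 0.00475 to 0.0117).

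Of the 5 cluster miRNAs tested in the quantile fit 1 passed, miR-450a, where 0.960% of all 625 probes passed in either direction and 0.800% as higher. Of the 4 with a scaled value on every array 2 passed, miR-450a and miR-542-3p, where 0.994% of all probes in that fit passed, each of them higher. The same 2 had groups that did not overlap, both higher, against 8.75% of those probes as higher and 22.9% in either direction. The miRNAs were proposed with results of these data known, so these counts describe the cluster. Their median log2 difference was 0.05 over the 5 in the quantile fit and 0.71 over the 4 on scaled intensities, beside -0.01 and -0.07 over all probes tested. The scaled median falls between -0.08 (miR-503) and 1.49 (miR-542-3p), with no miRNA near it. MiR-542-5p counts in the quantile median only. Some markers of the cells differed as well, in both directions in the quantile fit. Of the 4 kidney tubule markers tested, miR-194 rose in the quantile fit (limma adjusted p = 0.0194), and its scaled means were 19.6 ± 3.30 without and 44.5 ± 6.40 with the acid (SD, n = 3 per group). MiR-192 had 24.02 ± 4.30 and 49.5 ± 10.7 and miR-215 had 12.8 ± 4.84 and 28.7 ± 10.1, and neither passed (quantile fit, limma adjusted p 0.0687 and 0.198). The median scaled log2 difference of the 4 was 1.11, with a range of -0.21 (miR-30a) to 1.19. The summed scaled intensity of the list was 939 to 1074 in control and 832 to 1002 in treated samples, and most of that sum was miR-30a, with 925 ± 71.7 and 799 ± 69.0. Of the 6 epithelial markers tested, miR-205 fell by 0.32 in the quantile fit (limma adjusted p = 0.0194) and the other 5 did not pass. On scaled intensities miR-205 had a log2 difference of -0.64 and did not pass (limma adjusted p = 0.0891). The summed scaled intensity of the 6 epithelial markers was 498 to 512 in control and 470 to 526 in treated samples. The part of either list in the result was not tested.

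**Figure D2:**
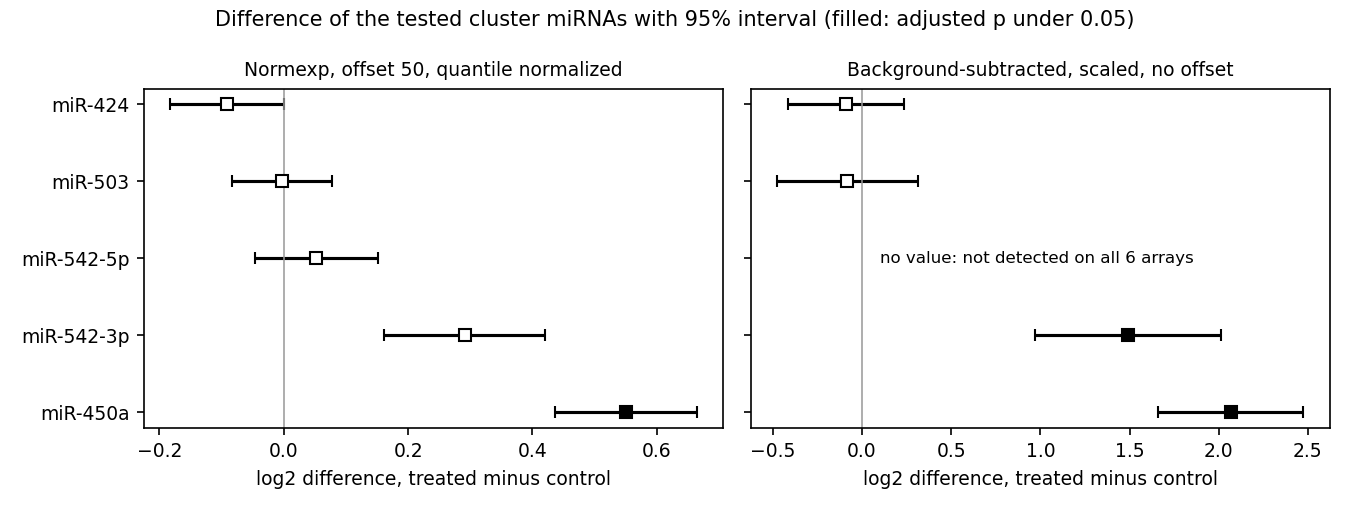
Log2 difference, treated minus control, of the cluster miRNAs tested, with 95% intervals from limma (n = 3 per group) in the quantile fit with an offset of 50 (left) and on scaled intensities without an offset (right). Filled squares passed an adjusted p of 0.05. MiR-450a lies at 0.55 and 2.07 and miR-542-3p at 0.29 and 1.49, while the intervals of miR-424 and miR-503 reach both sides of 0.

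MiR-450b, the last gene of the cluster, was near the detection limit. Its 5p arm had background-subtracted intensities of 2.78, 2.09 and 0.227 on the control arrays, of which the first was detected, and 5.18, 5.78 and 4.06 on the treated arrays, of which the last was not. The treated arrays lay above the control arrays on this scale, as they did for 53.7% of the human probes detected on all 6 arrays. In SDs of the blank spots the groups overlapped, at 1.93 to 3.00 in treated and 0.133 to 2.37 in control samples. The scaled intensity was 2.68 ± 2.03 and 5.64 ± 0.720 (SD, n = 3 per group). There too the treated arrays lay above the control arrays, as they did for 8.75% of the probes detected on all 6 arrays. No test was made. Its sequence matches that of miR-450a at the 16 positions counted above.

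The 3p arm of miR-450b had background-subtracted intensities of 0.723, 2.41 and 4.51 on the control arrays, with the last 2 detected, and -0.426, 0.728 and -2.26 on the treated arrays, with 0 detected. The groups overlapped on this scale, while on scaled intensities all 3 treated arrays lay below the control arrays. Of the probes detected on all 6 arrays, 22.9% had scaled groups that did not overlap in one direction or the other. No fold is given, because the control mean, 2.55, lay below the lowest value kept on any treated array, 3.85. The hairpin of MIR450B, with the 5p arm first and the 3p arm second in capitals, lies at chrX:134540185-134540262 on the minus strand of GRCh38.p14.
MIR450B: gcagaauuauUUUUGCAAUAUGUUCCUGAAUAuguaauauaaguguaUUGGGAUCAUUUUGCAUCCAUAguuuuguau
MiR-424*, the 3p arm of MIR424, was detected on 0 of 6 arrays, with background-subtracted intensities of -2.98 to 1.94, while miR-424 from the same hairpin was detected on all 6. That hairpin lies at chrX:134546614-134546711 on the minus strand, and both arms are in capitals.
MIR424: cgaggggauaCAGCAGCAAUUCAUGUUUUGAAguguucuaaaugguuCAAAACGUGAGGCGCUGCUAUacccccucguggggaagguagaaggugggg

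The cluster was proposed as a group in which some miRNAs rise and others stay flat. The ratios between its miRNAs are therefore given as a description, without p-values. The ratio of 2 of them on the same array does not depend on how arrays are scaled. The 4 miRNAs detected on all 6 arrays give 6 pairs. The log2 ratio of miR-450a over miR-424 was -4.80, -4.85 and -4.57 on the control arrays and -2.85, -2.55 and -2.37 on the treated arrays. It was higher by 2.16 on treated arrays, or 4.46-fold, with SDs of 0.15 and 0.24 (n = 3 per group), and the groups did not overlap.

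The log2 ratio of miR-450a over miR-503 was -0.21, -0.14 and 0.13 on the control arrays and 1.97, 2.26 and 2.00 on the treated arrays. It was higher by 2.15, or 4.44-fold. The ratio of miR-542-3p was higher by 1.58 both over miR-424 and over miR-503, or 2.99-fold and 2.98-fold. Treated replicate 3 was the lowest treated array for miR-542-3p in both, at -3.80 over miR-424 and 0.57 over miR-503. Without control replicate 3 these 4 changes were 1.64 to 2.25.

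The other 2 ratios overlapped between groups. MiR-503 over miR-424 was -4.67 ± 0.067 in control and -4.66 ± 0.26 in treated samples (SD, n = 3 per group), a change of 0.0067. MiR-450a over miR-542-3p was 0.27 ± 0.34 and 0.84 ± 0.52, a change of 0.57. Of the 6 pairs 4 thus had groups that did not overlap, where the share over the 126253 pairs of probes detected on all 6 arrays was 20.5%, and nothing is read from that count. The pairs share miRNAs and are not independent of each other. A ratio shows unequal change and does not say which of its miRNAs kept its level.

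**Figure D3:**
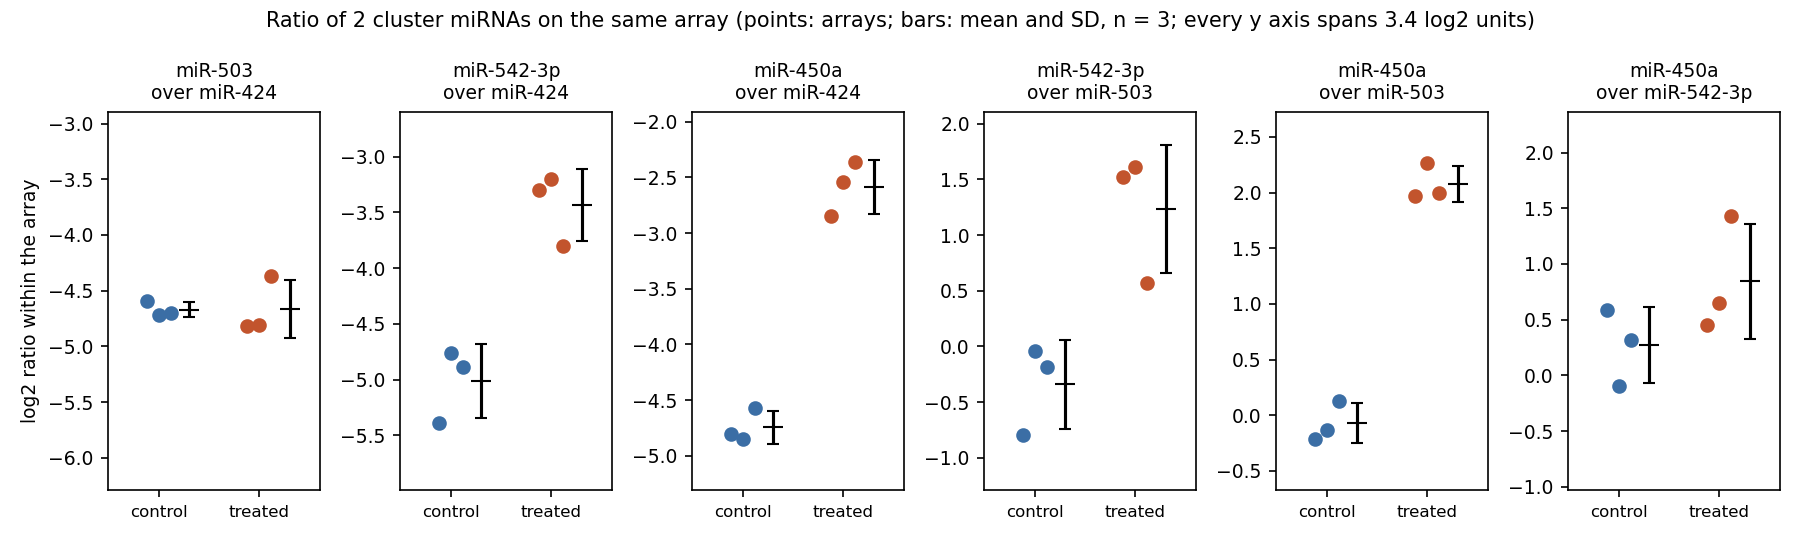
Log2 ratio of background-subtracted intensities of 2 cluster miRNAs on the same array for the 6 pairs, with a point for each array (control blue, treated orange) and the mean and SD beside them (n = 3). Every vertical axis spans the same number of log2 units. The 4 ratios of miR-542-3p or miR-450a over miR-424 or miR-503 are higher on every treated array, by 1.58 to 2.16, while the ratios of miR-503 over miR-424 and of miR-450a over miR-542-3p overlap.

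MiR-424 and miR-503 were tested in both fits and passed neither. Set along the cluster, their mature strands begin 10 and 318 bases from the 5′ end of the MIR424 hairpin. The MIR542 hairpin begins 5274 bases from it, and the copies of miR-450a begin 6126 and 6297 bases from it. The dim miR-542-5p begins at 5289 bases, miR-450b-5p at 6459 and miR-450b-3p at 6496. Both miRNAs with a difference past the threshold in at least 1 of the 2 fits therefore lie beyond the long gap between MIR503 and MIR542, though miR-542-5p and miR-450b lie there too and did not pass or were not tested.

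**Figure D4:**
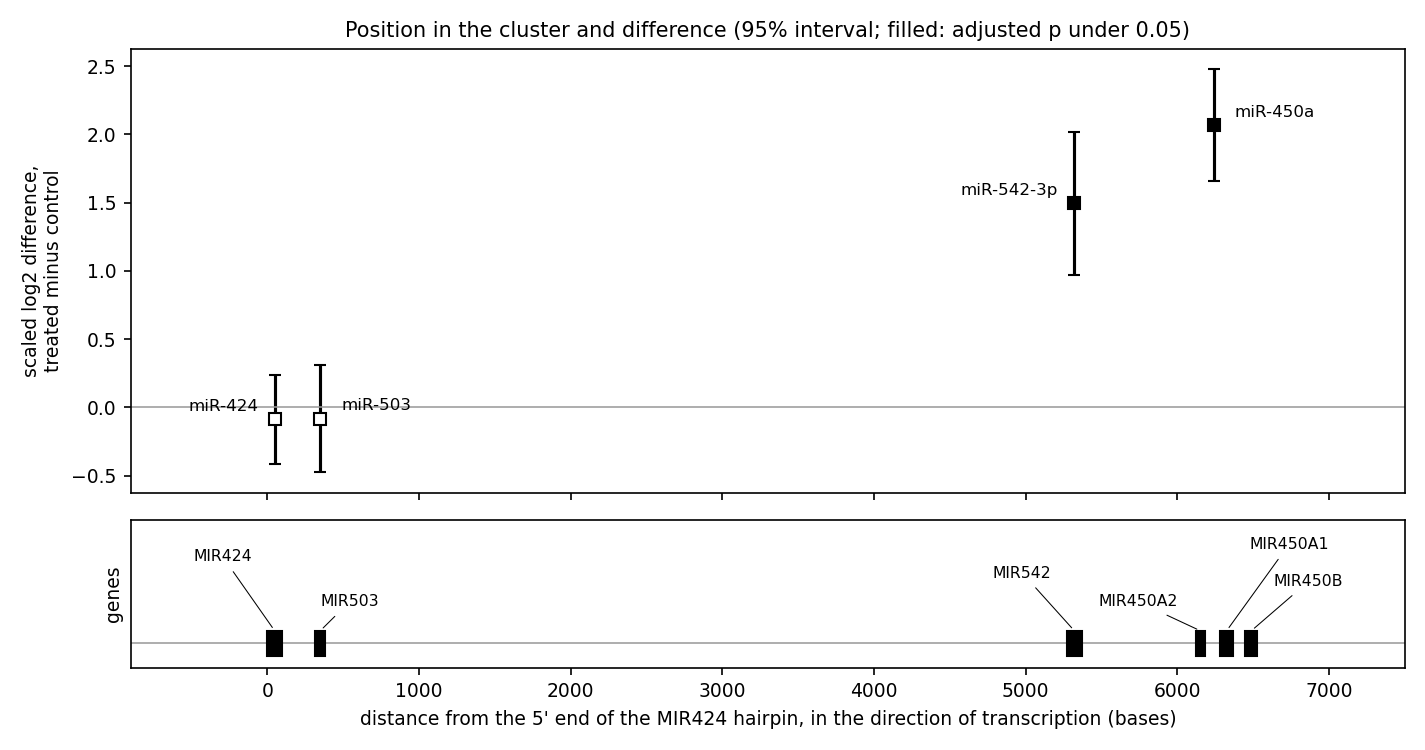
Scaled log2 difference, treated minus control, with its 95% interval (top), and the 6 genes to scale (bottom), against the distance in bases from the 5′ end of the MIR424 hairpin. MiR-450a is drawn midway between its 2 genes, MIR450A2 is drawn by its mature strands, and miR-542-5p and miR-450b have no scaled difference. MiR-424 and miR-503 lie at -0.09 and -0.08 at the left, and miR-542-3p and miR-450a at 1.49 and 2.07 beyond the gap of 4890 bases.

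The probes with the most similar pattern over the 6 arrays were found by the root mean square distance between log2 scaled intensities, each centred on its own mean, among the probes detected on all 6 arrays. For miR-424 the nearest probes outside the cluster were miR-23c at a distance of 0.064, miR-494 at 0.071 and miR-29a at 0.074. For miR-503 they were miR-4513 at 0.066, miR-1236 at 0.080 and let-7i at 0.086. None of these 6 had a difference past the threshold (limma adjusted p 0.693 to 0.991).

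For miR-542-3p the nearest were miR-5096 at 0.30, miR-4730 at 0.37 and miR-4747-3p at 0.37, and for miR-450a they were miR-4730 at 0.44, miR-194 at 0.45 and miR-3135b at 0.54. The scaled log2 differences of these probes were 1.05 for miR-5096, 1.36 for miR-4730, 0.92 for miR-4747-3p, 1.19 for miR-194, a miRNA abundant in kidney tubules, and 1.07 for miR-3135b. MiR-4730, miR-194 and miR-3135b passed in that fit (limma adjusted p 0.00921, 0.0271 and 0.0467). Among the cluster miRNAs the distance was 0.15 between miR-424 and miR-503 and 0.46 between miR-542-3p and miR-450a, and it was 0.84 to 1.09 between those pairs. Distances are descriptions over 6 arrays, and a probe that moves little is near many others.

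MiR-424 shares its seed with the miR-15/16 family, which restrains the cell cycle. Of 5 members of that family chosen by name, 4 were tested and 0 passed in limma in either fit, where 0.960% and 0.994% of all probes passed. At an unadjusted p under 0.05 the count was also 0 of 4 in both, where 94 of 625 probes (15%) lay in the quantile fit and 13.5% on scaled intensities, so 0 of 4 is near the share over all probes. Their median log2 difference was -0.10 in the quantile fit (range -0.13 to -0.028) and -0.19 on scaled intensities (-0.29 to -0.12), beside -0.01 and -0.07 over all probes. The scaled intensity of miR-15b was 166 ± 11.05 in control and 146 ± 4.98 in treated samples (SD, n = 3 per group). MiR-497 was detected on 2 control arrays and 1 treated array.

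The cluster of miR-106a and miR-363 is another X-chromosome group of miRNAs, related to the growth-promoting cluster of miR-17 and miR-92a. All 6 of its probes were tested and 0 passed in limma in either fit, with 2 of 6 at an unadjusted p under 0.05 in the quantile fit and 1 of 6 on scaled intensities, beside the same 15% and 13.5% of all probes. They had a median log2 difference of -0.13 in the quantile fit (range -0.41 to 0.0063) and -0.28 on scaled intensities (-0.56 to -0.02). MiR-106a had 647 ± 30.2 in control and 469 ± 54.8 in treated samples (SD, n = 3 per group, quantile fit adjusted p = 0.0644 in limma). MiR-363 had 23.2 ± 7.41 and 22.3 ± 5.15. MiR-19b and miR-92a have a second gene copy on another chromosome, so their probes do not measure this cluster alone.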

How the data were processed

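Total RNA (500 ng per sample) was labelled with Cy5, per the labels' protocols, and measured on 1 array per sample. The array platform and scanner are not given in the sources used here. Per the file headers, the deposited values are raw spot intensity, background-subtracted intensity, an average, a coefficient of variation (a ratio, not used) and globally normalized intensity. The authors' series table held the same globally normalized intensities, within 4.1e-05. Checked on the values, the authors subtracted 1 constant per array and multiplied by 1 factor that set the median of detected human probes to 25.

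Raw intensities of all 3136 spots were corrected by normexp with an offset of 50. The 1719 human probes were then quantile normalized, and marked outlier spots, found for 2 probes, were not used. A linear model with group as its term (limma 3.58.1, R 4.3.3) covered the 625 probes with detection throughout either group, and Benjamini-Hochberg adjustment ran over all 625 with a threshold of 0.05. The fit on scaled intensities used the probes detected on all 6 arrays. Exact permutation tests of array measures were 2-sided. A planned exact permutation test of the ratios between cluster miRNAs could not reach 0.05 with 3 against 3. Its p-values are not given, since the cluster was proposed for unequal change. The model was tested on simulated data.

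The text names the 7 miRNAs, other probes of their hairpins, 2 lists, the cell markers and, for each miRNA detected on all 6 arrays, the 3 nearest patterns. The miRNAs, lists and tests were chosen with earlier results of these data known. The labels name no pairing, and replicate numbers were not used to pair the samples in the main fits. Coordinates and sequences are RefSeq's for GRCh38.p14, and the number of arrays limits the precision.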

Additional observations from a re-analysis of the deposited data

How the results depend on the processing

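MiR-450a passed in all 16 alternatives to the quantile fit (log2 difference 0.45 to 2.07, limma adjusted p 1.76e-05 to 0.0359). The number of cluster miRNAs past the threshold was 1 in the quantile fit. It was 3 with median scaling, 5 without normalization between arrays, 2 on scaled intensities, 2 with an offset of 16 and 2 with trend and robust variance, and leaving out 1 array gave 1 to 2. Over all probes the same settings called 82, 310, 5, 8 and 10, beside 6 in the quantile fit. MiR-542-3p passed in 6 of 16 alternatives (log2 difference 0.18 to 1.49, limma adjusted p 0.00314 to 0.514).

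The sign of miR-424 turned when arrays were scaled on medians (0.29), left unnormalized (0.36) or scaled on the spike-ins (0.11). That of miR-503 turned with median scaling (0.033), without normalization (0.11) and without 1 array (0.0078 without control replicate 1, 0.0061 without control replicate 3, 0.0085 without treated replicate 2; range -0.024 to 0.0085). That of miR-542-5p turned on the spike-ins (-0.10) and on the authors' values (-0.016), which lack control replicate 3 for this probe. The median of all probes was 0.07, 0.14 and -0.11 under the first 3 of these settings and -0.20 on the authors' values.

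With the replicate number as a replicate block, miR-450a kept its call (log2 difference 0.55, limma adjusted p = 0.0359) and the count over all probes was 4. The deviations of same-numbered samples from their group means correlated at -0.14, -0.18 and 0.0077. With 3 samples per group these deviations depend on each other, so the values cannot decide whether the samples were paired. The changes of the 4 ratios that did not overlap were smaller after normexp with an offset. They were 0.29 to 0.64 with an offset of 50 and quantile normalization, and 0.44 to 1.04 with an offset of 16. An offset adds to dim spots by construction, and the share of each step was not tested. Chosen after seeing the data, a background taken from the negative control spots or moved by 1 SD of the blank spots gave scaled log2 differences of 1.88 to 2.34 for miR-450a, past the threshold in each. Dim control spots limit the size of these folds.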
